A study of Danio rerio with 5 samples.

Results

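The Hox cluster genes of the zebrafish were followed in RNA of whole larvae labelled as wild type or as zbtb24 mutant. Members were taken as every row of the expression table whose gene symbol named a gene of a Hox cluster by its letter (a to d), its paralogue number and its duplicate letter (a or b), in either case of type. This gave 49 of the 21854 rows, which carry 48 distinct symbols because hoxc10a stands under 2 gene identifiers. The members fall into 7 clusters and 13 paralogue groups. In the RefSeq annotation of assembly GRCz12tu the clusters lie on chromosomes 19 (hoxaa), 16 (hoxab), 3 (hoxba), 12 (hoxbb), 23 (hoxca), 11 (hoxcb) and 9 (hoxda).

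Hox genes encode homeodomain transcription factors that set the identity of positions along the head to tail axis. Within a cluster the genes follow each other in the order of their paralogue numbers, and low numbers are expressed from the hindbrain backwards while high numbers act in the posterior trunk, tail and distal fins, a relation known as collinearity. Teleost fishes carry extra clusters from a duplication of the whole genome, so many genes have an a and a b copy. Polycomb proteins keep Hox genes silent outside their domains, Trithorax and MLL proteins keep them active, retinoic acid turns on low-numbered members, and TALE homeodomain proteins of the Pbx, Meis and Prep families bind DNA together with Hox proteins.

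The study compared zebrafish larvae at 2 weeks after fertilization, 2 libraries labelled WT and 3 labelled Mutant, each from a pool of 10 whole larvae. Mutant larvae were homozygous for zbtb24mk22, a deletion made with TALENs that takes out part of the coding sequence of zbtb24, a zinc finger gene mutated in ICF syndrome (immunodeficiency, centromeric instability and facial anomalies). The labels call the other group WT, and the paper gives it as zbtb24+/+. No other allele or agent is given for either group. Because whole larvae were pooled, fewer cells of a type and less RNA per cell cannot be told apart. The comparison asks whether Hox transcripts differed between the groups, and along which clusters or paralogue groups. The design text gives 3 pools per genotype, but only 2 WT samples are listed. The WT libraries are named by the numbers of their columns, 2 and 3. These do not match the numbers in the titles of the WT samples, so a WT column was not tied to a sample. Values are always given in the order WT column 2, WT column 3, then Mutant 1, 2 and 3. A scaled count is a read count divided by the size factor of its library.

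Reads assigned to genes numbered 23796792 to 28601962 per library. The transcript of zbtb24 itself went against the labels, with scaled counts of 127 and 77.3 in WT and of 155, 175 and 282 in Mutant (log2 fold change 0.98, SE 0.28, limma adjusted p = 0.0642). By qRT-PCR at the same age the authors reported no detectable zbtb24 transcript in homozygous mutants. The values here count a whole gene and do not tell which exons the reads came from. The labels name the source as fin, but 10 of 10 marker genes each of eye and lens, liver, and exocrine pancreas and gut had reads in all 5 libraries, as did 12 of 12 brain markers, so RNA of these organs was present. Of 20307 genes tested, 1218 passed an adjusted p of 0.05.

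No Hox gene changed between the groups at an adjusted p under 0.05. All 49 members passed the filter on low values, and limma called 0 of them, where it called 6.00% of all tested genes (3.32% as higher and 2.68% as lower in Mutant). The lowest adjusted p of a member was 0.137. At an unadjusted p under 0.05 there were 4 members (8.16%), against 26.7% of all tested genes. With voom on the recovered reads, 0 members passed the adjusted threshold and 3 had an unadjusted p under 0.05. The 4 members in limma were the second hoxc10a row, hoxc11a, hoxc6a and hoxd12a, and all had positive log2 fold changes. The p-values measure the spread between these pools alone.

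The intervals of the differences show what size of change these libraries could hold. For 45 of 49 members the 95% interval of the log2 fold change lay within a 2-fold change in either direction, and for 28 it lay within a 1.5-fold change. The 4 others were hoxa1a, hoxa11a, hoxb1a and the second hoxc10a row, which had the fewest reads. Members were measured with 5 to 768 reads per library, and their mean scaled counts ran from 10.7 (hoxb1a) to 697 (hoxb3a). The median standard error of a member was 0.17 on the log2 scale, against 0.15 over all tested genes. The median absolute log2 fold change was 0.18 over the members, 0.21 over all tested genes and 0.23 over the 14325 tested genes within the members' range of mean scaled counts, of which 5.09% were called.

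**Figure D1:**
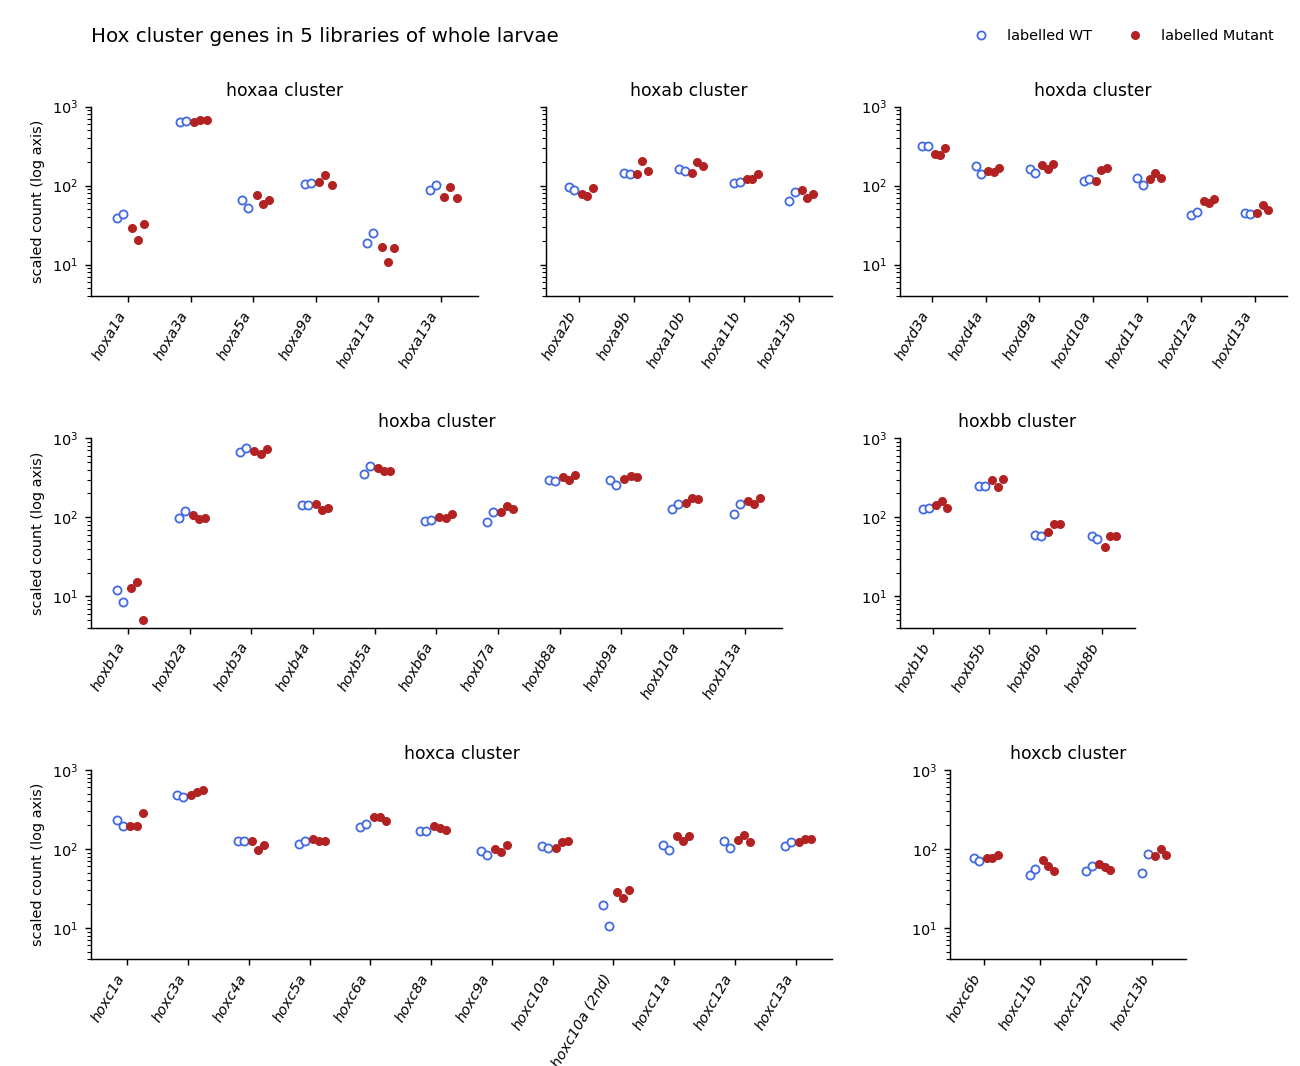
Scaled counts of the 49 Hox cluster genes in each of the 5 libraries, on a log axis, with 1 panel per cluster and genes in the order of paralogue number. Open blue points are the 2 libraries labelled WT and filled red points the 3 labelled Mutant, and for most genes both sets of points lie close together, with hoxb1a, hoxa11a, hoxa1a and the second hoxc10a row lowest and most scattered.

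Although no single member passed, the signs of the differences were uneven. The log2 fold change was positive for 38 members and negative for 11, while 49.8% of all tested genes were positive. The median over the members was 0.15, beside a median of -0.0014 over all tested genes. With columns rescaled to equal totals 33 of 49 members were positive and the median was 0.06, and the median of all tested genes then stood at -0.09, so that 38 members still lay above it. All 3 Mutant libraries were higher than both WT libraries for 16 members (32.7%, against 22.3% of all tested genes), and all 3 were lower for 3 members (6.12%, against 22.7%). These counts depended on the scaling. With columns rescaled to equal totals 7 members were higher without overlap (14.3%, against 14.7% of all tested genes) and 6 were lower (12.2%, against 31.8%). The 7 were hoxa11b, hoxb6a, hoxb6b, hoxc6a, the second hoxc10a row, hoxc11a and hoxd12a, and the 6 were hoxa1a, hoxa3a, hoxa11a, hoxb4a, hoxc4a and hoxd3a. Members in 1 cluster lie side by side and all members share the same libraries, so they are not independent of each other, and no test was made over them as a set.

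The signs differed between low and high paralogue numbers, without an even rise along them. In paralogue groups 1 to 3, which act from the hindbrain and pharyngeal arches backwards, 4 of 10 members were positive with a median log2 fold change of -0.03. In groups 4 to 8, which act in the posterior hindbrain, anterior spinal cord and trunk, 12 of 15 were positive with a median of 0.14. In groups 9 to 13, the posterior genes of trunk, tail and fins, 22 of 24 were positive with a median of 0.21. With columns rescaled to equal totals these counts were 2 of 10, 10 of 15 and 21 of 24. By single group, in the deposited scaling, group 4 had 1 of 3 members positive (median -0.08), like groups 1 to 3. In groups 5 to 8, 4 of 4, 4 of 4, 1 of 1 and 2 of 3 were positive, with medians of 0.13, 0.25, 0.34 and 0.14. The highest medians were those of groups 7 (0.34, 1 member), 10 (0.27) and 6 (0.25), and that of group 13 was 0.18. Over the 49 members the log2 fold change and the paralogue number had a Spearman rho of 0.50 and a Pearson r of 0.40, as a description across genes of the same 5 libraries. The rho was 0.22 without WT column 2 and 0.36 without Mutant 2. With the log2 mean scaled count the rho was -0.0015.

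**Figure D2:**
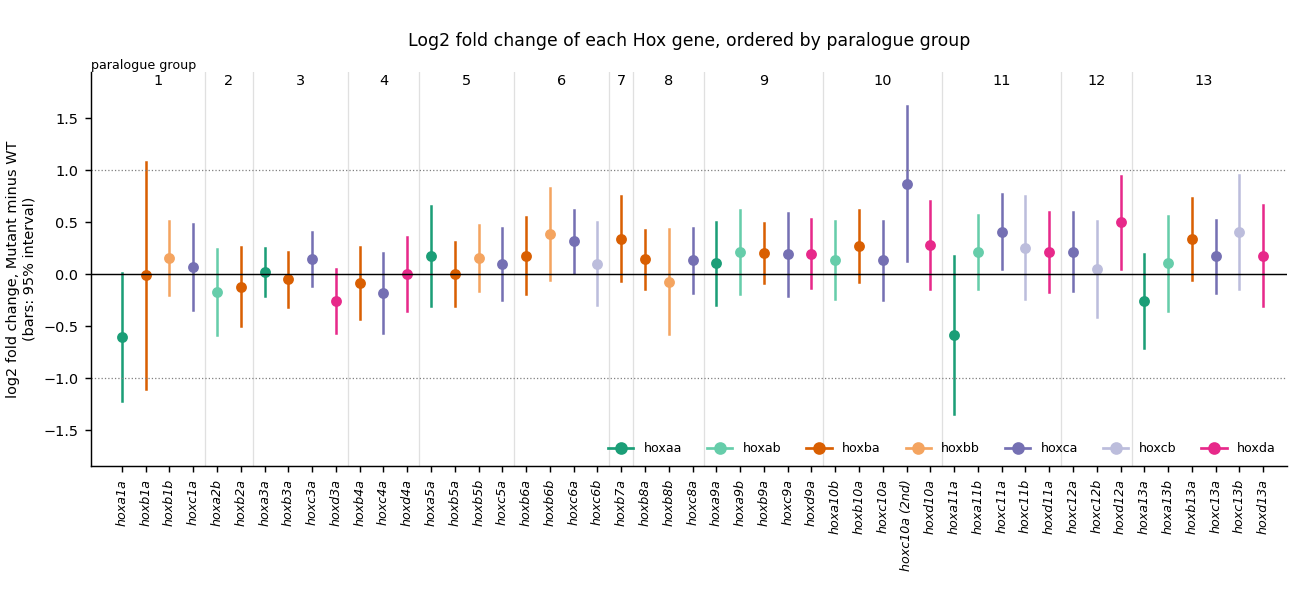
Log2 fold change of each Hox gene (libraries labelled Mutant minus those labelled WT, on the log2(scaled count + 1) scale) with its 95% interval, ordered by paralogue group from 1 to 13 and coloured by cluster. Dotted lines mark a 2-fold change, and 22 of 24 points of groups 9 to 13 lie above 0 (21 of 24 with columns rescaled to equal totals), while those of groups 1 to 3 lie on both sides of it.

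Summed over members, the anterior genes of groups 1 to 3 gave scaled counts of 2702, 2772, 2622, 2632 and 2917, and the ranges of the groups of libraries overlapped (ratio of means 0.995). Groups 4 to 8 summed to 2238, 2334, 2538, 2368 and 2493 (ratio 1.08), a separation that was lost with columns rescaled to equal totals (2346, 2391, 2478, 2317 and 2435, ratio 1.02). Groups 9 to 13 summed to 2435, 2458, 2692, 2948 and 2859, with all Mutant libraries above both WT libraries (ratio 1.16), and this held with equal totals (2552, 2518, 2629, 2885 and 2793, ratio 1.09). A sum is led by its most abundant genes. The median over genes also parted the libraries in the posterior groups, with deviations from the mean of the 5 libraries of -0.11 and -0.12 in WT and 0.02, 0.15 and 0.09 in Mutant on the log2 scale. In groups 1 to 3 these median deviations were 0.03, 0.02, -0.05, -0.12 and 0.06, so that Mutant 3 lay above and Mutant 1 and 2 below both WT libraries.

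**Figure D3:**
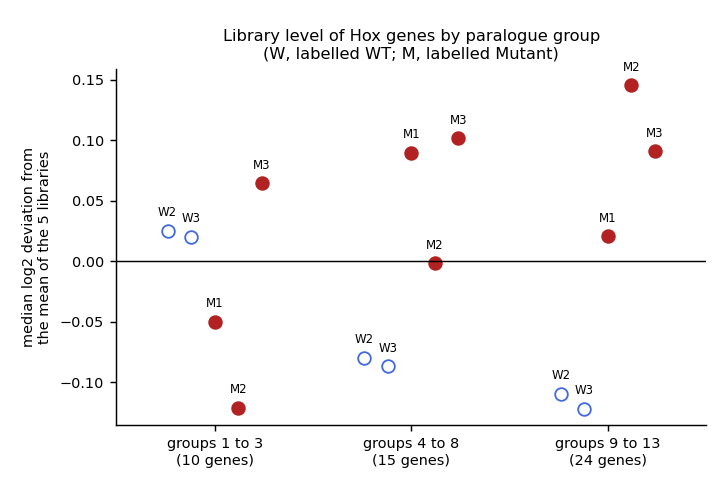
Median log2 deviation of the Hox genes from the mean of the 5 libraries, by paralogue groups 1 to 3 (10 genes), 4 to 8 (15 genes) and 9 to 13 (24 genes), with 1 point per library (W2 and W3, WT columns 2 and 3; M1 to M3, Mutant 1 to 3). In groups 9 to 13 the WT libraries stand at -0.11 and -0.12 and the Mutant libraries at 0.02 to 0.15, while in groups 1 to 3 the libraries overlap.

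Tissue markers moved between the same libraries. At a limma adjusted p under 0.05, 4 of 5 red cell markers rose (median log2 fold change of the list 1.02) and 4 of 10 liver markers (0.45). Of 10 skin and fin markers 2 rose (0.45) and of 10 muscle markers 2 rose (0.35). Of 12 brain markers 2 fell (-0.32) and of 10 eye and lens markers 5 fell (-0.50). Over all tested genes 3.32% were called higher and 2.68% lower. The log2 fold change was positive for 5 of 5 red cell, 10 of 10 liver, 10 of 10 skin and fin and 10 of 10 muscle markers. It was positive for 3 of 12 brain, 1 of 10 eye and lens and 6 of 10 exocrine pancreas and gut markers. Of 10 exocrine pancreas and gut markers 0 passed in limma (median 0.02), and 2 had an unadjusted p under 0.05, as had 26.7% of all tested genes. The scaled counts of the brain markers summed to 48186 and 41208 in WT and to 36558 to 39536 in Mutant. Those of the skin and fin markers summed to 264712 and 302905 in WT and to 414438 to 421983 in Mutant. None of these markers was at 0 reads in any library. Their part in the differences of the Hox genes by paralogue number was not tested.

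Among the genes of paralogue group 1, hoxa1a had the largest negative difference of all members with all 5 libraries in the fit. Its scaled counts were 38.7, 43.4, 28.7, 20.4 and 32.3, so that every Mutant library lay below both WT libraries (log2 fold change -0.60, SE 0.28, adjusted p = 0.198 in limma). hoxb1a and hoxb1b give the fourth rhombomere of the zebrafish hindbrain its identity. hoxb1b stood at 127, 132, 143, 163 and 131, with overlapping groups and a log2 fold change of 0.16. hoxb1a had 5.05 to 15.1 scaled counts and an interval from -1.10 to 1.08 on the log2 scale, too wide to place it. hoxc1a was at 230 and 195 in WT and at 196, 197 and 285 in Mutant, where Mutant 3 alone was high.

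Paralogue group 2 holds hoxa2b and hoxb2a, which specify the second pharyngeal arch in zebrafish. hoxa2b was at 95.6, 87.9, 78.2, 74.3 and 92.9 and hoxb2a at 99.0, 119, 107, 95.8 and 97.0. The groups overlapped for both, and their log2 fold changes were -0.17 and -0.12.

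Mouse genes of paralogue group 3 pattern the pharyngeal arches and neck. The zebrafish group 3 genes took the most counts of the members in 4 clusters. hoxb3a had 661, 760, 690, 632 and 740 scaled counts (log2 fold change -0.05, SE 0.12, limma adjusted p = 0.825). hoxa3a had 639, 650, 629, 667 and 668 (0.02, SE 0.10, limma adjusted p = 0.911). For both the Mutant libraries lay on both sides of the WT values, with intervals of -0.31 to 0.22 and of -0.21 to 0.25. hoxc3a was at 483, 460, 484, 525 and 563 (0.15, SE 0.12, limma adjusted p = 0.441), with Mutant 1 next to WT column 2. hoxd3a was at 317, 317, 253, 242 and 303, all Mutant libraries below WT (-0.26, SE 0.14, limma adjusted p = 0.267). In RefSeq the spans of these 4 genes overlap those of higher-numbered neighbours (hoxb3a with hoxb4a, hoxb5a and hoxb6a, hoxa3a with hoxa5a, hoxc3a with hoxc4a to hoxc9a, and hoxd3a with hoxd4a). In all, 17 members have such overlaps. These are spans from start to end of a gene in another build than the one used for counting. The assignment of reads among these members may be uncertain, which was not tested.

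Paralogue group 4 marks the posterior hindbrain and responds to retinoic acid. In the deposited scaling the WT and Mutant libraries overlapped for each of its members. hoxb4a was at 142, 142, 147, 124 and 131, hoxc4a at 127, 126, 127, 96.9 and 113, and hoxd4a at 176, 139, 152, 150 and 168. The log2 fold changes were -0.08, -0.18 and 0.0027. With columns rescaled to equal totals, hoxb4a and hoxc4a were lower in every Mutant library, as were 31.8% of all tested genes. In group 5 the WT and Mutant libraries overlapped for every member in both scalings. Its best-covered members were hoxb5a, at 348, 448, 421, 387 and 380 (0.0033), and hoxb5b, at 249, 251, 300, 240 and 301. hoxb5b, which limits the number of heart cells in zebrafish embryos, had the most counts of the hoxbb cluster and a log2 fold change of 0.16 (SE 0.14, limma adjusted p = 0.514), with Mutant 2 below both WT libraries. hoxa5a (51.9 to 76.2 scaled counts over the libraries) and hoxc5a (114 to 134) had log2 fold changes of 0.18 and 0.10.

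Paralogue group 6 has mouse counterparts that act in the anterior thorax. Every Mutant library lay above both WT libraries in all 4 of its members, as for 22.3% of all tested genes. With columns rescaled to equal totals this held for 3 of 4 members (not hoxc6b), against 14.7% of all tested genes. hoxc6a was at 187, 207, 255, 254 and 228, with a log2 fold change of 0.32 (SE 0.14, limma adjusted p = 0.172). hoxb6b was at 59.4, 57.2, 65.3, 82.9 and 82.8 (0.39). hoxb6a (89.5 and 92.1 in WT, 97.9 to 109 in Mutant) differed less, at 0.18. So did hoxc6b (75.8 and 70.9 in WT, 76.2 to 83.8 in Mutant), at 0.10. For hoxc6b the gap between the WT and Mutant libraries was smaller than the value of 1 read. Summed, the group gave 412, 428, 499, 511 and 504 scaled counts.

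Groups 7 and 8 pattern the trunk. hoxb7a, the single member of group 7, was at 86.9, 116, 117, 139 and 128 (0.34), with WT column 3 next to Mutant 1, and the log2 fold change was 0.13 without WT column 2 and 0.55 without WT column 3. hoxb8a was at 293, 286, 328, 294 and 340 (0.15) and hoxc8a at 168, 167, 196, 183 and 175 (0.14). Neither overlapped in the deposited scaling, as for 22.3% of all tested genes, although for hoxb8a the gap was about the value of 1 read. With columns rescaled to equal totals the WT and Mutant libraries overlapped for both. hoxb8b was at 57.7, 52.9, 42.5, 58.1 and 58.6 (-0.07), where Mutant 1 was lowest.

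All 5 members of paralogue group 9 were positive, with log2 fold changes of 0.11 to 0.21. hoxb9a was at 299, 259, 308, 336 and 320 and hoxd9a at 163, 145, 180, 164 and 187, with no overlap in the deposited scaling. For hoxd9a the nearest libraries of the groups differed by about the value of 1 read. With columns rescaled to equal totals the WT and Mutant libraries overlapped for both genes. hoxa9b was at 143, 141, 141, 206 and 154, led by Mutant 2. hoxa9a (101 to 136) and hoxc9a (82.6 to 113) overlapped between the groups. In mouse, Hoxc9 sets the identity of thoracic motor neurons.

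Paralogue group 10, known in mouse for keeping ribs off the lumbar vertebrae, held the largest positive difference with all 5 libraries in the fit. The second hoxc10a row (ENSDARG00000096956) was at 19.8, 10.6, 28.7, 23.7 and 30.3, every Mutant library above both WT libraries (log2 fold change 0.87, SE 0.34, adjusted p = 0.137 in limma). It rests on few reads and on WT column 3. Without that library it was 0.45, below hoxc13b (0.80), hoxd12a (0.55), hoxb13a (0.55) and hoxb7a (0.55). Without WT column 2 it was 1.29. The hoxc10a row with more reads was at 108, 104, 102, 124 and 124, with overlapping groups and a log2 fold change of 0.14. hoxa10b, the member of hoxab with the most counts, was at 163, 152, 146, 199 and 179 (0.14, SE 0.17, limma adjusted p = 0.629). hoxb10a was at 127, 148, 153, 177 and 169 (0.27), without overlap in the deposited scaling but with overlap at equal totals. hoxd10a was at 114, 123, 115, 156 and 169 (0.28), where Mutant 1 lay among the WT values.

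Group 11 genes act in the sacral region and the middle part of the limb in mouse. hoxc11a was at 111, 97.4, 145, 126 and 145, without overlap (log2 fold change 0.41, SE 0.16, limma adjusted p = 0.147). hoxa11b was at 109, 110, 122, 123 and 138, also without overlap (0.21). hoxa11a went the other way, at 18.9, 25.4, 16.8, 10.8 and 16.2, every Mutant library below both WT libraries (-0.58, SE 0.34, limma adjusted p = 0.304), on few reads and with -0.38 without WT column 3. hoxd11a overlapped between the groups (125 and 101 in WT, 123 to 145 in Mutant). So did hoxc11b (47.3 and 56.1 in WT, 52.5 to 73.2 in Mutant). Summed over its 5 members the group gave 412, 390, 480, 466 and 476 (ratio 1.18).

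Groups 12 and 13 are the most posterior genes, and group 13 genes are needed for the fin rays of zebrafish. hoxd12a was at 43.0, 46.6, 63.3, 60.3 and 67.7, without overlap (log2 fold change 0.50, SE 0.20, limma adjusted p = 0.150). hoxc12a was at 126, 104, 131, 149 and 121 (0.22) and hoxc12b at 52.5 and 61.4 in WT and 53.5 to 64.3 in Mutant (0.05), both with overlap. In group 13, hoxc13b had the most counts of the hoxcb cluster, at 49.9, 86.8, 81.1, 100.1 and 82.8 (0.41, SE 0.25, limma adjusted p = 0.321), a difference that rests on the low value of WT column 2 (0.013 without it). hoxa13a was negative, at 86.9, 102, 71.2, 95.8 and 70.7, with overlap (-0.26, SE 0.20, limma adjusted p = 0.446, and -0.15 without WT column 3). hoxb13a was at 109, 147, 160, 146 and 178 (0.34, or 0.13 without WT column 2), and hoxc13a (110 to 135), hoxa13b (63.7 to 88.1) and hoxd13a (43.4 to 57.0) had log2 fold changes of 0.17, 0.11 and 0.18. The single group 13 gene without overlap was hoxc13a, whose lowest Mutant value of 123 lay next to the WT value of 122. It overlapped with columns rescaled to equal totals.

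Summed by paralogue group, the scaled counts were higher in every Mutant library than in both WT libraries for groups 6 to 12, which are 7 of 13. With columns rescaled to equal totals this held for 3 groups, 6, 11 and 12, with ratios of means of 1.13, 1.12 and 1.12. Single genes without overlap on the higher side made up 22.3% of all tested genes in the deposited scaling and 14.7% with equal totals. The sum was lower in every Mutant library for group 2 in the deposited scaling (ratio 0.906). With equal totals it was lower in every Mutant library for groups 2 and 4 (0.855 and 0.893). Single genes without overlap on the lower side made up 22.7% of all tested genes, and 31.8% with equal totals. The other ratios in the deposited scaling were 1.04, 0.995, 0.947, 1.05 and 1.12 for groups 1, 3, 4, 5 and 13.

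Read by cluster instead, the differences were more alike. The median log2 fold change was 0.14 to 0.20 in 6 clusters, namely hoxab (5 members), hoxba (11), hoxbb (4), hoxca (12), hoxcb (4) and hoxda (7), and -0.12 in hoxaa (6 members, 3 of them positive). The hoxca cluster had 11 of 12 members positive and 6 higher without overlap, as were 22.3% of all tested genes. With columns rescaled to equal totals only hoxc6a, the second hoxc10a row and hoxc11a of this cluster remained, against 14.7% of all tested genes. In hoxda, 6 of 7 members were positive and hoxd3a, the lowest-numbered gene measured there, was the negative one. In hoxba, the 4 negative members were hoxb1a to hoxb4a and the 7 positive ones hoxb5a to hoxb13a. Of these, hoxb5a turned negative with columns rescaled to equal totals (as did hoxd4a in hoxda). hoxb1a turned positive with a pseudocount of 8 (0.022), and hoxb2a (0.011) and hoxb3a (0.053) did so without WT column 3. The 3 negative members of hoxaa were hoxa1a, hoxa11a and hoxa13a, so in this cluster negative signs fell at low and at high paralogue numbers.

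Duplicate copies could be compared for 11 pairs with both an a and a b gene. Both copies were positive in 7 pairs (hoxa9, hoxb5, hoxb6, hoxc6, hoxc11, hoxc12 and hoxc13), and the signs differed in 4 (hoxa11, hoxa13, hoxb1 and hoxb8). In no pair were both copies negative. With columns rescaled to equal totals hoxb5a (-0.081) and hoxc12b (-0.032) turned negative, so the signs then also differed in the hoxb5 and hoxc12 pairs. The share of the a copy in the reads of a pair moved most between groups for hoxa11, where hoxa11a made up 14.8% and 18.8% in WT and 12.1%, 8.06% and 10.5% in Mutant, without overlap. For hoxa13 the share of the a copy was 57.7%, 55.2%, 44.7%, 58.2% and 47.3%, with Mutant 2 above both WT libraries. These shares are not set per transcript length, and a difference between 2 copies was not tested.

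Known partners and regulators of Hox genes were followed by their calls at an adjusted p under 0.05, which limma gave to 6.00% of all tested genes. Of 14 TALE cofactor genes 1 fell and 0 rose, and the list median was -0.21. It was pbx1b, which encodes a Pbx partner of Hox proteins, at 230, 218, 148, 130 and 134 scaled counts (log2 fold change -0.70, SE 0.15, limma adjusted p = 0.0296). Of 7 tested evx and ParaHox genes 1 fell, pdx1, a ParaHox gene of the pancreas and duodenum, at 80.1, 113, 45.5, 40.9 and 54.6 (-1.01, limma adjusted p = 0.0368). In both genes every Mutant library lay below both WT libraries.

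Of 25 genes of retinoic acid synthesis, breakdown and reception none passed the limma test (voom 0 at the adjusted threshold). At an unadjusted p under 0.05 in limma there were 5, against 26.7% of all tested genes. The largest difference was that of crabp2a, which encodes a cellular retinoic acid binding protein, at 556, 867, 963, 1010 and 988 (log2 fold change 0.51, limma adjusted p = 0.0906). The list median was -0.09.

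Of 26 Polycomb genes 1 fell and 0 rose, with a median of -0.05. It was ezh1, which encodes a histone H3 lysine methyltransferase of Polycomb complexes, at 1173, 803, 512, 460 and 706 (-0.82, limma adjusted p = 0.0443). Of 15 Trithorax and MLL genes none passed in limma, while voom called 1 of them and 1731 of all 20307 tested genes. The list median in limma was -0.12, and 4 of 15 genes were positive. At an unadjusted p under 0.05 in limma there were 5, against 26.7% of all tested genes. Of these, kmt2a, kmt2ba, kdm6a and kdm6al were lower in Mutant and dpy30 was higher. The largest difference in limma was that of psip1, which encodes a chromatin reader that tethers MLL complexes, at 131, 213, 197, 255 and 210 (0.39, limma adjusted p = 0.262).

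Of 14 tested fin and axis genes 1 rose, and2, which encodes an actinodin of the fin folds, at 7989, 10232, 11743, 13413 and 14471 (log2 fold change 0.54, limma adjusted p = 0.0426). Of 18 hindbrain and spinal cord genes 2 fell and 0 rose, with a median of -0.24. They were isl1 (-0.49, limma adjusted p = 0.0472) and LHX3 (-1.04, limma adjusted p = 0.0322), which specify motor neurons. The values of LHX3 were 97.3, 82.6, 49.5, 35.5 and 45.5, so that all Mutant libraries lay below both WT libraries. The call of and2 was lost with equal totals, quantile normalization and voom. Over all 7 lists, 0 genes were called without WT column 2 and 0 without Mutant 2, while 7 Polycomb genes were called without WT column 3. These calls stand beside the 6.00% called over all tested genes.

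**Figure D4:**
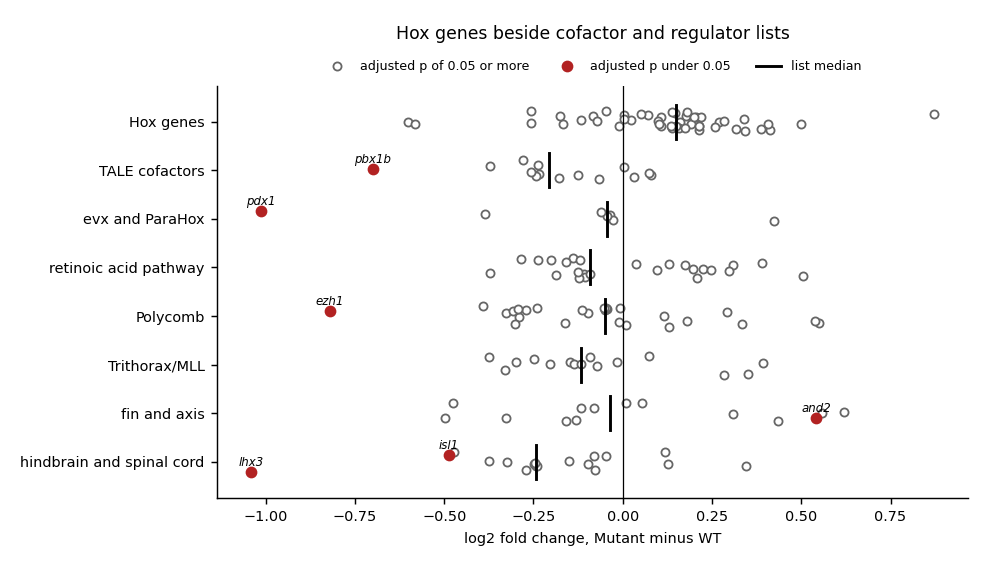
Log2 fold change (Mutant minus WT) of the 49 Hox genes and of the genes in 7 lists of cofactors and regulators, with filled points for genes at a limma adjusted p under 0.05 and a black bar at the median of each list. No Hox gene is filled, and the Hox median of 0.15 (0.06 with columns rescaled to equal totals) is the only positive median of the 8 rows.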

How the data were processed

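Poly(A) RNA of pooled whole larvae was sequenced as paired ends from stranded libraries. The authors aligned reads to danRer7 with STAR, counted them per gene with HTSeq 0.5.3 on an Ensembl annotation and scaled them with DESeq. The deposited signal is the scaled count with 1 added, and 1 was subtracted. All values were then whole multiples of 1 step per library (within 0.01 reads), which gave the recovered reads. Whether counting used strand is not given in the sources used here.

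Scaled counts plus a pseudocount of 1 were tested as log2 values with limma 3.58.1 (R 4.3.3), two-sided, with an intensity trend, no covariates and Benjamini-Hochberg adjustment over 20307 genes with a mean of at least 10 (1547 left out). Fold changes understate those of low genes. With 2 against 3 libraries an exact permutation p cannot fall below 0.1, so none is given. The steps were tested on simulated data.

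The members and the gene lists were chosen with earlier results of these data known. Named genes were called members, the 4 largest differences in each direction, the member with the most counts per cluster, and per list the called genes or otherwise the largest difference. Other members are given by values or ranges. From the hindbrain and spinal cord list 1 gene is not reported here. RefSeq (another build) gave chromosomes and overlaps of genes alone, and no sequence or transcript length was used, so levels are not compared between genes. The 14 alternatives were leaving out each library in turn, a pseudocount of 0.5 or 8, a minimum mean of 50 or none, equal totals, quantile normalization, robust empirical Bayes, voom, and the column number as a block.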

Additional observations from a re-analysis of the deposited data

How the results depend on the processing

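No Hox gene was called under any of the 14 alternatives (lowest adjusted p 0.0674, limma without WT column 3), and 30 of 680 gene values changed sign, in 11 genes near 0. With equal totals the median log2 fold change was 0.064 over all members and -0.11, 0.053 and 0.12 in groups 1 to 3, 4 to 8 and 9 to 13. With voom, which likewise scaled each library by its total reads, these medians were 0.062, -0.12, 0.053 and 0.12. Signs turned with equal totals for hoxb5a (-0.081), hoxd4a (-0.081), hoxc1a (-0.013), hoxc12b (-0.032) and hoxa3a (-0.062), with voom for hoxb5a (-0.074), hoxd4a (-0.091), hoxc1a (-0.019), hoxc12b (-0.026) and hoxa3a (-0.062), and with a pseudocount of 8 for hoxb1a (0.022). Leaving out single libraries gave ranges of -0.24 to 0.43 for hoxb1a, -0.18 to 0.19 for hoxb5a, -0.078 to 0.29 for hoxa13b, -0.060 to 0.16 for hoxc12b, -0.25 to 0.011 for hoxb2a, -0.15 to 0.053 for hoxb3a, -0.17 to 0.17 for hoxd4a, -0.11 to 0.19 for hoxc1a, -0.15 to 0.077 for hoxb8b and -0.0087 to 0.20 for hoxa9a. The cause was not tested.

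Of the lists, calls with equal totals and voom were 2 for TALE cofactors and 1 for Trithorax and MLL, and those for fin and axis genes were 0 with equal totals, quantile normalization and voom. Over all 20307 tested genes 1584 were called with equal totals and 1731 with voom. Leaving out single libraries gave 0 to 2 calls for TALE cofactors, 0 to 1 for evx and ParaHox, 0 to 1 for retinoic acid, 0 to 7 for Polycomb, 0 to 2 for Trithorax and MLL, 0 to 2 for fin and axis and 0 to 2 for hindbrain and spinal cord genes. Over all genes 44 were called without WT column 2, 2428 without WT column 3, and 437, 70 and 1132 without Mutant 1, 2 and 3. With 1 WT library left, that library is assumed to vary like the others. Without Mutant 2 the filter left 48 members.

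The edgeR and DESeq2 alternatives were not run. The numbers 2 and 3 occur in column names of both groups, but no label says that a number marks a shared litter, batch or day. The deviations from the group means correlated at -0.15 for number 2 and at -0.13 for number 3. With 2 WT libraries their deviations mirror each other, so these values cannot decide whether the numbers pair the pools. No pairing was assumed. A fit with the column number as a replicate block, chosen after seeing the data and with 1 residual degree of freedom, called 0 Hox genes and 1010 genes in all, with 3 fin and axis calls and 1 hindbrain and spinal cord call. Its estimates leave out Mutant 1, and hoxb5a (-0.041), hoxb8b (0.077) and hoxc12b (-0.012) turned sign in it. The sums and counts of members without overlap at equal totals were also added after seeing the data.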
